A study of Mus musculus with 3 samples.

Results

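Of 21887 mouse protein-coding genes, 41 autophagy and lysosome genes were followed in MYC and Flag CUT&Tag peak lists of Pan02, a mouse cell line derived from pancreatic ductal carcinoma. CUT&Tag brings a transposase to an antibody's target and sequences the DNA it cuts there. The 3 libraries, 1 per group, were a Flag library and a MYC library from Pan02 cells that stably carry Flag-tagged POH1, and a MYC library from Pan02 cells with the empty vector. POH1, the product of Psmd14, removes ubiquitin chains from substrates at the lid of the proteasome. The labels name neither the promoter that drives POH1-Flag nor the number of clones. The 41 genes are listed by function, with many chosen for E-boxes in their promoters, and all 41 matched the gene table by symbol. A gene had a gene-end peak when a peak's summit lay within 1 kb of either of its ends on GRCm38.

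Autophagy wraps cytoplasm in a double membrane and delivers it to the lysosome, whose acid hydrolases need a proton pump. ULK1 and beclin complexes start the membrane, a ubiquitin-like conjugation system attaches ATG8 proteins to it, and receptors such as p62 bring in cargo. TFEB, TFE3 and MITF are helix-loop-helix factors that bind the CLEAR element, an E-box found at many lysosomal promoters. MYC with MAX also binds E-boxes, and MYC and these factors have been described at shared lysosomal and autophagy promoters. Pancreatic ductal tumours are known for high autophagy and lysosome activity.

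The MYC lists held 12175 peaks in vector and 22647 in POH1-Flag cells, and the Flag list held 2936. Judged by the genome-wide background, the POH1-Flag MYC and Flag libraries were 1.06 and 1.05 times as deep as the vector library in reads per kb. In reads stacked at one position the MYC backgrounds were 0.845 in vector and 0.826 in POH1-Flag cells. Reads per kb divide them by fragment lengths of 219 and 202 bp. These lengths were inferred from the narrowest peak of each list, and the depths above rest on them. Counting intervals below cover counting error within a library only, and no difference between cell lines can be set against a spread between replicates. Peaks do not measure expression, so the cell type was not tested by them. Near an end, MYC peaks were present in both lists at 1 of 7 epithelial markers (Sox9) and at 0 of 5 acinar, 5 fibroblast and 5 macrophage markers, and Pdgfrb and Cd68 had one in POH1-Flag cells alone.

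MYC peaks lay near an end of 27 of the 41 genes in vector cells (65.9%), against 28.2% of all protein-coding genes. In POH1-Flag cells they lay near 36 of 41 (87.8%), against 40% of all genes. All 27 genes marked in vector cells were marked again, so 0 were marked in vector cells only (1.99% of all genes with a vector peak), 9 were marked in POH1-Flag cells only, and 5 had no gene-end peak in either list, namely Atg7, Map1lc3a, Gabarapl1, Lamp2 and Hexa. Every role group was above the share of all genes in both lists, from 3 of 6 ATG8 and receptor genes and 2 of 4 lysosomal membrane genes in vector cells to all 8 initiation genes, all 5 genes of the TFEB group and all 4 proton pump genes in POH1-Flag cells. Groups of 4 to 8 genes are too small to be ranked, and differences between them were not tested. Flag peaks were near 0 of the 41 genes, against 0.196% of all genes, so a count of 0 is what the background alone would give. No Flag summit lay inside any of the 41 genes, and the closest was 10.8 kb from an end of Atp6v1h.

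**Figure D1:**
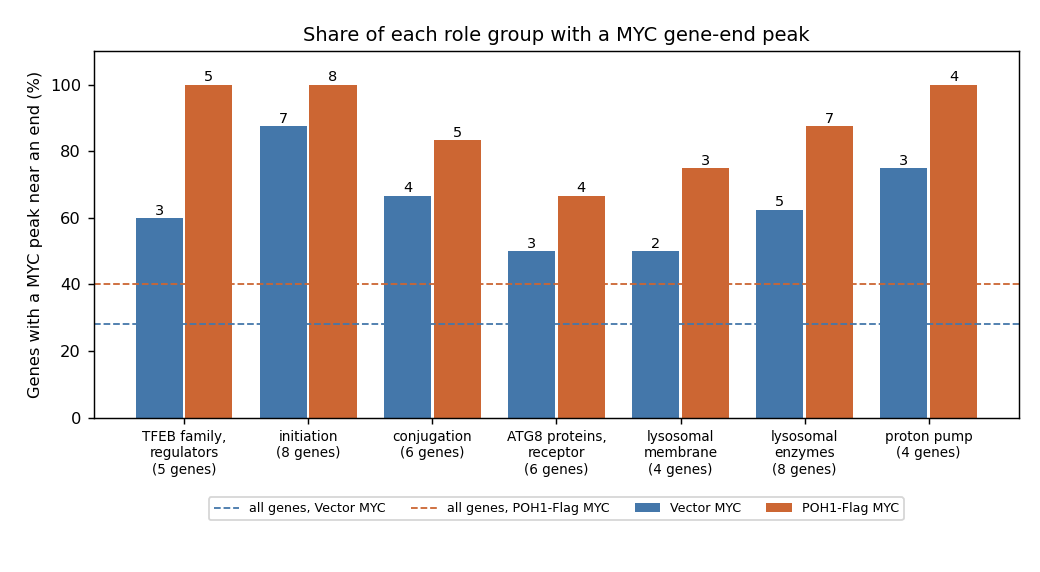
Share of each role group (x axis, with its number of genes) that had a MYC peak near an end, in percent (y axis), in vector cells (blue bars) and POH1-Flag cells (orange bars), with the gene counts above the bars. Dashed lines give the share of all protein-coding genes, 28.2% and 40%, and every bar stands above the line of its library.

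Most summits sat at the gene start. Among the 34 genes with a promoter in the RefSeq GRCm38.p6 promoter table, 24 had a vector summit within 1 kb of a listed start and 30 a POH1-Flag summit, against 30.4% and 43.1% of all 17492 genes with a listed promoter. The other 7 were Becn1, Atg12, Atg16l1, Map1lc3a, Npc1, Ctsb and Atp6v1h. The highest summit of each marked gene was a median of 142 bp from the nearer gene end in vector cells and 128 bp in POH1-Flag cells. For Gabarap and Map1lc3b the highest POH1-Flag peak lay at the far end, 643 bp and 340 bp from it, where Phf23 and Zcchc14 also have an end. At 12 of the 36 marked genes (33.3%) the highest POH1-Flag site was also within 1 kb of another gene's end, close to the 30.1% of all marked genes, so these peaks cannot be told apart from those of the neighbour. They include Atg13 with Harbi1, Atg9a with Ankzf1, Atg3 with Slc35a5, Atg4b with Thap4, Atg12 with Ap3s1, Ctsa with Neurl2, Gla with Hnrnph2, Neu1 with Slc44a4, Atp6v0d1 with Agrp and Atp6v1a with Naa50.

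E-boxes were frequent in these promoters, which the choice of the genes favours. The window searched ran from 250 bases before to 50 after each listed start, and the motif CACGTG is its own reverse complement, so both strands are covered. It was present at 15 of the 34 genes with a listed promoter (44.1%), against 8.91% of all 17492. The core of the CLEAR element, TCACGTGA, which contains CACGTG, was present at 8 of 34 (23.5%), against 1.41% of all. The longer form of this element, with a G directly before the core and a C directly after it, was at 0 of 34. Over all 17492 promoters it was at 82 (0.469%), so a count of 0 is near the background. CACGCG on either strand, another E-box form, was at 6 of 34 (17.6%), against 13.7%.

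E-boxes were spread unevenly over the roles, and with 3 to 7 promoters each the differences were not tested. CACGTG was in all 3 proton pump promoters listed, in 5 of 7 lysosomal enzyme promoters, 2 of 3 lysosomal membrane promoters and 3 of 4 conjugation promoters. It was in 1 of 7 initiation promoters (Atg14), 1 of 5 of the TFEB group (Fnip1) and 0 of 5 ATG8 and receptor promoters. The TCACGTGA cores are shown because this is the element TFEB family factors are known to bind and it holds an E-box. Their 10 windows follow 5′ to 3′ on the gene's strand, from RefSeq GRCm38.p6, with the core in capitals.
Atg3 chr16:45158748-45158773 (+): agagtcgagTCACGTGAggccttagg
Mcoln1 chr8:3500464-3500489 (+): gcgccccgcTCACGTGAccgcggcgc
Ctsa chr2:164833751-164833776 (+): agcaaactgTCACGTGAtgcagatgc
Ctsa chr2:164833768-164833793 (+): tgcagatgcTCACGTGAccagagcta
Ctsd chr7:142387910-142387935 (-): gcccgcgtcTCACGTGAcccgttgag
Gla chrX:134601217-134601242 (-): agcgattgaTCACGTGAgcatctacg
Gla chrX:134601184-134601209 (-): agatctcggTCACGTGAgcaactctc
Atp6v0d1 chr8:105566052-105566077 (-): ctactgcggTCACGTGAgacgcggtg
Atp6v0e chr17:26676389-26676414 (+): gcgcgccgaTCACGTGAgcctctgtt
Atp6v1a chr16:44139375-44139400 (-): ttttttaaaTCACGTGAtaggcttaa
These 8 genes are Atg3, Mcoln1, Ctsa, Ctsd, Gla and the 3 pump genes, and all 8 had a MYC gene-end peak in POH1-Flag cells. In vector cells 5 of the 8 had one, and Mcoln1, Ctsa and Gla did not. Among all genes with TCACGTGA in the promoter, 53.3% of 246 had a vector peak and 71.5% a POH1-Flag peak, against 28.8% and 40.5% of genes without it.

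MYC peaks were counted at promoters with and without an E-box, as a description with no test. Of the 15 genes with CACGTG, 11 had a vector peak and 14 a POH1-Flag peak, and of the 19 without it 13 and 16. Over all genes with a listed promoter the shares were 44.6% and 56.8% with CACGTG, and 27.6% and 39.4% without. The median POH1-Flag pileup, the number of reads stacked at the summit, was 19 reads at marked genes of the 34 with CACGTG and 26 at those without, whereas over all genes it was 25 and 21. These promoters also held more CpG than the average, with a median of 20 CpG in 300 bases, against 13 over all genes, 24 over all genes with MYC peaks in both lists and 5 over those with none. The part of promoter composition in the peak counts was not tested.

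The 4 promoters in which an E-box lay closest to a MYC summit, 1 per role group, are given whole on the gene's strand with every CACGTG in capitals.
Lamp1 chr8:13158911-13159210 (+): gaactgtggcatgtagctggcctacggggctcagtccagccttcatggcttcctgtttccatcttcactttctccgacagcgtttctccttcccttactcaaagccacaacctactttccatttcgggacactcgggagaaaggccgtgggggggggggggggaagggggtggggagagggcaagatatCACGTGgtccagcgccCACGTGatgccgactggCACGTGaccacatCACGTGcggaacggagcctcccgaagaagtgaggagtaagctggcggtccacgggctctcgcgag
Atg3 chr16:45158579-45158878 (+): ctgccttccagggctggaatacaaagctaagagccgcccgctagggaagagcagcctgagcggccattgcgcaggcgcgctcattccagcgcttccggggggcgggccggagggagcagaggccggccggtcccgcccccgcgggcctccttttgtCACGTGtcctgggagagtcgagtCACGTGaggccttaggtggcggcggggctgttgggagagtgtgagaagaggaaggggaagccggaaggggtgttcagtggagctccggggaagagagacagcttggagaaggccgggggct
Ctsd chr7:142387778-142388077 (-): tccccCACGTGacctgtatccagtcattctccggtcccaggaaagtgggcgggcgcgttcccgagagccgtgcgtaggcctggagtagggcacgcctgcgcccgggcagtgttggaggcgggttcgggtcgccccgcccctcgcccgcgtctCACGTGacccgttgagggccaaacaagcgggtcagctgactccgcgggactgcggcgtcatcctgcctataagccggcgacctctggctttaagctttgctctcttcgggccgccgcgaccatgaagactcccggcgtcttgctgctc
Atp6v0d1 chr8:105566015-105566314 (-): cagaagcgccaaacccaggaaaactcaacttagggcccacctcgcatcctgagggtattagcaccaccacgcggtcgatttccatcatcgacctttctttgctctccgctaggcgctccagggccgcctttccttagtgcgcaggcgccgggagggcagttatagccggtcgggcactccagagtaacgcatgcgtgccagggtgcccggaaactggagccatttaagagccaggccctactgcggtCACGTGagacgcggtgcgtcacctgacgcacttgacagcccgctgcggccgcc
Lamp1, a major glycoprotein of the lysosomal membrane, had 4 E-boxes in this window, the most of the 34 genes. The vector summit lay 3 bp from the middle of one of them, and the POH1-Flag summit 51 bp from the nearest. Its MYC peak was low, with 8 reads in vector cells and 9 reads in POH1-Flag cells, the lowest POH1-Flag pileup of the 36 marked genes. At Atg3 the POH1-Flag summit was 17 bp from the nearer E-box and the vector summit 94 bp. The Ctsd summits lay between its 2 E-boxes, 72 bp from the nearer one in both lists. At Atp6v0d1 the summits were 67 and 122 bp from the single E-box, which spans the start. In all, an E-box lay inside a gene-end MYC peak of either list at 12 of the 15 genes, and the exceptions were Atg7, Ctsa and Atp6v1a. By list it was 9 of 11 marked genes in vector and 11 of 14 in POH1-Flag cells, against 73.3% of 696 and 83.5% of 886 among all marked genes with CACGTG. The 4 printed promoters were picked for short distances. Over those 11 and 14 genes the median distance from E-box to summit was 101.5 and 122 bp. Over all marked genes with CACGTG it was 138.5 and 122.5 bp.

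**Figure D2:**
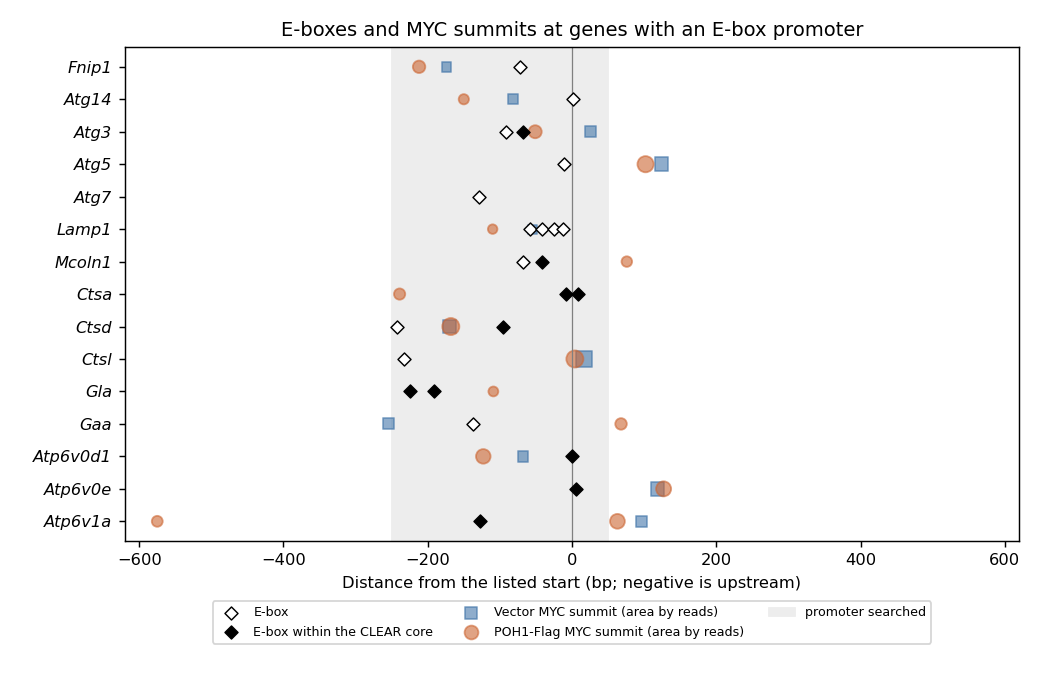
Positions of E-boxes (open diamonds, or filled where they lie in the TCACGTGA core) and of MYC summits (blue squares in vector cells, orange circles in POH1-Flag cells, area by reads) at the 15 genes with CACGTG in a listed promoter, as distance in bp from the listed start (x axis). Summits within 600 bp are drawn, the shaded band is the 250 bases before to 50 after the start that were searched, and Atg7 has no gene-end peak.

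In the TFEB group, peaks were low at the 3 transcription factor genes and higher at Flcn. Tfeb (chromosome 17, 47737037 to 47792416) had no vector peak and 11 reads in POH1-Flag cells, 104 bp from its start. Mitf likewise had no gene-end vector peak and 11 reads. Tfe3 had 11 reads in vector and 19 reads in POH1-Flag cells, a ratio of 1.77 (0.799 to 4.11). Ratios are POH1-Flag to vector pileups, each scaled to its own library's genome-wide background in stacked reads, with an exact 95% counting interval, and this one holds 1. Flcn, the folliculin gene whose product controls TFEB through the Rag GTPases, had 24 and 29 reads (1.24, 0.695 to 2.22). Its partner gene Fnip1 had 10 and 18 reads (1.84, 0.806 to 4.47), and an internal Fnip1 site had 9 and 10 reads (1.14, 0.415 to 3.16). None of the 5 promoters has the CLEAR core in this window. Mitf, a long gene with several promoters, also had an internal MYC site 68.3 kb from its far end with 9 and 20 reads (2.27, 0.9897 to 5.67), and Tfeb an internal POH1-Flag peak of 15 reads 25.9 kb from its start. Going the other way, Tfe3 had an internal vector peak of 9 reads, 65 bp from a listed start, and no internal POH1-Flag peak.

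Of the initiation and phosphoinositide genes, Wipi1 and Uvrag had the highest POH1-Flag peaks of the 41. Wipi1, which encodes a PI3P effector of the growing membrane (chromosome 11, 109573521 to 109611389), had 27 reads in vector and 48 reads in POH1-Flag cells. The POH1-Flag pileup was above that of 96.0% of all marked genes, and the ratio of 1.82 (1.11 to 3.03) had an interval above 1, also with backgrounds in reads per kb (1.03 to 2.80). Uvrag, a partner of beclin in PI3P synthesis, had 33 and 41 reads (1.27, 0.784 to 2.08), the highest vector pileup of the 41. Ulk1, the kinase that starts autophagy, had 15 and 27 reads (1.84, 0.945 to 3.72). Neither interval leaves out 1, so a difference at these genes was not detectable at this depth. Wipi2, which recruits the conjugation machinery, had 14 and 26 reads (1.90, 0.957 to 3.94), and Atg9a, the membrane scramblase gene, 21 and 29 reads (1.41, 0.778 to 2.61). A second Atg9a site at the far end, where Abcb6 also has an end, had 17 and 20 reads (1.20, 0.599 to 2.45). Atg13 of the ULK1 complex (8 and 13 reads) and Atg14 of the PI3 kinase complex (10 and 11 reads) were low in both lists. Becn1, the beclin gene, had a peak in POH1-Flag cells only, with 15 reads at 160 bp and a second of 9 reads at 246 bp from its end.

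Of the 6 conjugation genes, 4 shared a site with more reads in POH1-Flag cells, and the other two had no gene-end vector peak. Atg5, whose product is joined to ATG12, had 23 and 33 reads (1.47, 0.836 to 2.62) and Atg12 itself 23 and 27 reads (1.20, 0.663 to 2.19). The protease gene Atg4b had 19 and 31 reads (1.67, 0.914 to 3.13), and Atg3, the E2-like enzyme gene, 14 and 20 reads (1.46, 0.702 to 3.13). All 4 intervals hold 1, so a difference at any of them was not detectable at this depth. Atg16l1, which places the conjugation complex on the membrane, had 12 reads in POH1-Flag cells only. Atg7, the E1-like enzyme gene, had no peak near an end. Its MYC site lay inside the gene, 17.01 kb from the start, with 15 reads in vector and 13 reads in POH1-Flag cells (0.887, 0.388 to 1.998), and its E-box belongs to a listed start farther inside the gene.

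Of the 6 ATG8 and receptor genes, 3 had a gene-end peak in vector and 4 in POH1-Flag cells. Map1lc3a and Gabarapl1 had no gene-end peak, and Map1lc3b, the gene of LC3B, had 11 reads at its start and 12 reads at its far end in POH1-Flag cells only. Gabarapl2 had 13 and 26 reads at a site 683 to 700 bp from its start (2.05, 1.01 to 4.34). That interval held 1 without scaling (0.991 to 4.24) and with backgrounds in reads per kb (0.936 to 4.001). Gabarap had 14 and 26 reads at its start (1.90, 0.957 to 3.94), besides the far-end peak of 32 reads in POH1-Flag cells. Another POH1-Flag peak of 19 reads, 370 bp from the start, also overlapped the vector peak. The ratio uses the higher of these overlapping peaks and would be lower with the other, whose summit is nearer the vector summit. Sqstm1, the gene of the cargo receptor p62, had 20 reads in each list but at places that do not overlap. The vector summit was 91 bp and the POH1-Flag summit 536 bp from the start, on either side of it, so no ratio is given.

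**Figure D3:**
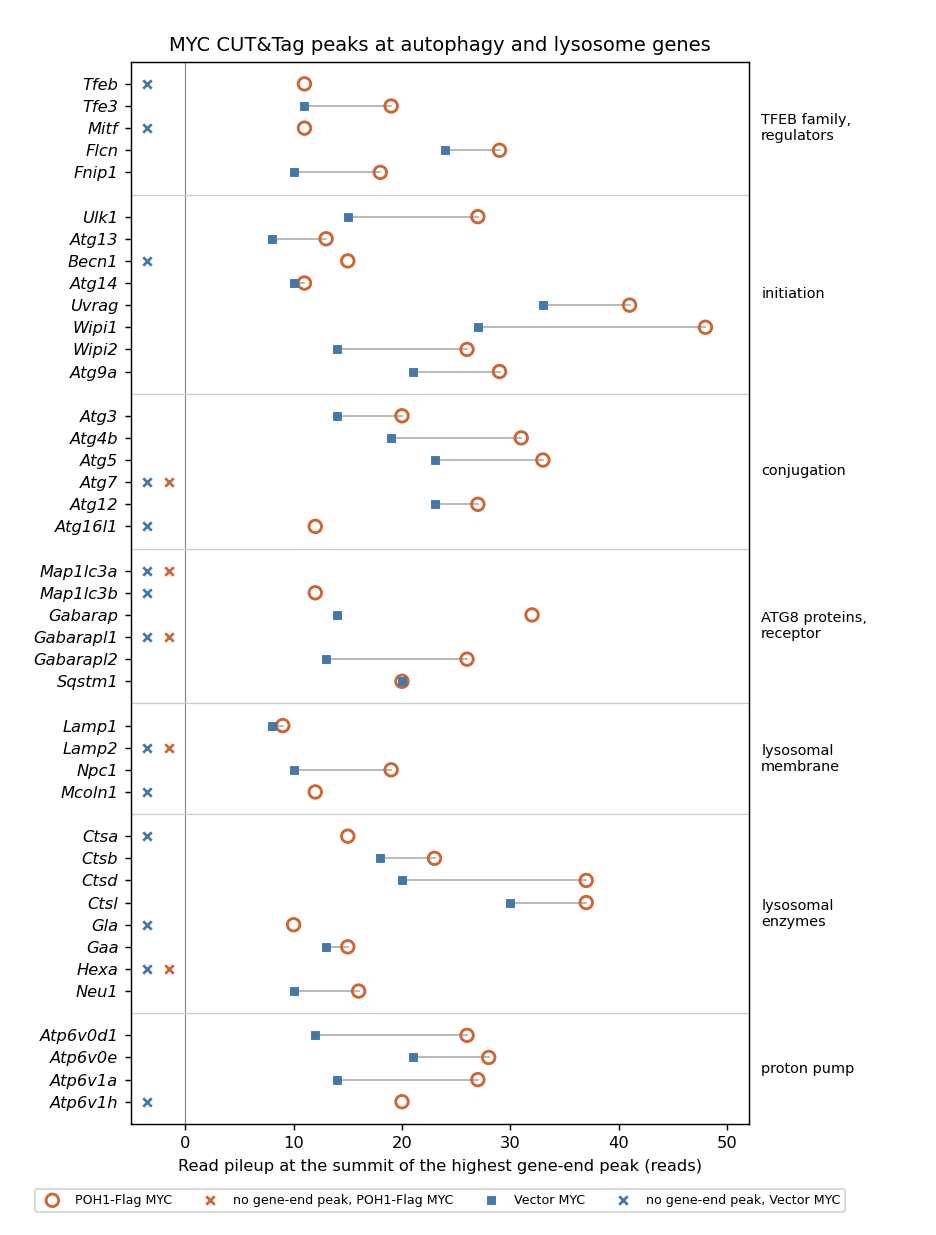
Read pileup at the highest gene-end MYC peak of each of the 41 genes (x axis, reads) in vector cells (filled blue squares) and POH1-Flag cells (open orange circles), with crosses left of 0 where a list had no gene-end peak and grey lines where both are the same site. Wipi1 reaches 48 reads and Uvrag 41 reads in POH1-Flag cells, and 5 genes have crosses in both colours.

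Among lysosomal enzyme genes the cathepsin genes Ctsl, Ctsd and Ctsb had the higher peaks and the other 5 had at most 16 reads or none. Ctsl, the cathepsin L gene, had 30 reads in vector and 37 reads in POH1-Flag cells (1.26, 0.759 to 2.12). Ctsd, the gene of the aspartic protease cathepsin D (chromosome 7, 142375910 to 142387827), had 20 and 37 reads at its start (1.89, 1.07 to 3.44), an interval that held 1 with backgrounds in reads per kb (0.987 to 3.17). A second Ctsd site at the far end had 20 and 34 reads (1.74, 0.973 to 3.19). Ctsb, the cathepsin B gene, had 18 and 23 reads (1.31, 0.675 to 2.57), and an internal Ctsb site had 8 and 13 reads (1.66, 0.639 to 4.63). The α-glucosidase gene Gaa had 13 and 15 reads (1.18, 0.524 to 2.70) and the sialidase gene Neu1 10 and 16 reads (1.64, 0.699 to 4.04). Ctsa, the gene of cathepsin A, the protective protein of NEU1, and Gla, the α-galactosidase A gene, had 15 and 10 reads in POH1-Flag cells only. Hexa, the gene of a β-hexosaminidase subunit, had no gene-end peak, and the nearest POH1-Flag summit was 1568 bp from its end.

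Among lysosomal membrane genes, Lamp2, whose product serves chaperone-mediated autophagy and fusion, had no MYC peak in the gene or within 1 kb of it. Npc1, the cholesterol exporter gene, had 10 and 19 reads (1.94, 0.860 to 4.68), and Lamp1 8 and 9 reads (1.15, 0.394 to 3.43). Mcoln1, which encodes the calcium channel of the lysosome, had 12 reads in POH1-Flag cells only, with the nearest vector summit 1423 bp from its end. None of these 4 genes reached a −log10 q of 10 in either list. Over all genes 6.91% did so in vector and 20.1% in POH1-Flag cells, so 0 of 4 is near the background.

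All 4 proton pump genes reached a −log10 q of at least 10 in POH1-Flag cells, against 20.1% of all genes, and 1 of them, Atp6v0e, did so in vector cells, against 6.91%. In vector and POH1-Flag cells, 2 and 5 of 8 initiation genes and 2 and 4 of 6 conjugation genes also did. So did 1 and 3 of 8 lysosomal enzyme genes, 0 and 2 of 5 in the TFEB group, and 0 and 1 of 6 ATG8 and receptor genes. The groups were too small to be ranked. Atp6v0d1, of the membrane sector (chromosome 8, 105524461 to 105566064), had 12 reads in vector and 26 reads in POH1-Flag cells, and its ratio of 2.22 (1.08 to 4.82) was the highest of the 26 genes with a ratio. With backgrounds in reads per kb its interval held 1 (0.996 to 4.45). Atp6v1a, the catalytic subunit gene, had 14 and 27 reads (1.97, 0.999 to 4.07) at its start. A second site of it had 14 and 13 reads (0.9501, 0.411 to 2.18), so the sites at this gene differed in ratio, with overlapping intervals. A further POH1-Flag peak of 19 reads, 847 bp from the gene's end, had no partner in the vector list. Atp6v0e had 21 and 28 reads (1.36, 0.747 to 2.53). Atp6v1h, a regulatory subunit gene (chromosome 1, 5082978 to 5163213), had 20 reads in POH1-Flag cells, 263 bp from its end, and no vector peak within 193225 bp of an end.

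Over the 26 genes with a shared MYC site, the pileup in POH1-Flag cells was higher at all 26, and the size was that of all genes. The median log2 ratio was 0.72, a fold of 1.65, over the 26 genes, and 0.72, a fold of 1.65, over all 5999 genes with a shared site, of which 98.4% were higher. Ratios of the 26 ran from 1.13 at Atg14 to 2.22 at Atp6v0d1. The interval lay above 1 at 4 of 26 genes (Wipi1, Gabarapl2, Ctsd and Atp6v0d1), against 25.8% of all genes with a shared site, and below 1 at none of the 26. These calls depend on the scaling. Without scaling 3 of the 26 intervals lay above 1 (22.8% of all genes), with backgrounds in reads per kb 1, that of Wipi1 (15.2% of all genes), and with the median of all shared genes set to 1 there were 0 (0.05% of all genes). Autophagy factors (13 genes with a shared site) had a median log2 ratio of 0.73 and lysosome genes (10 genes) 0.58. The local background that the peak caller used was also higher in POH1-Flag cells at all 26 sites, with medians of 2.63 against 1.69 reads, and over all genes 2.85 against 1.82 reads. With pileups set against this local background the median log2 ratio was 0.18 over the 26 genes and 0.21 over all genes. The ratio was then above 0 at 73.1% of the 26 genes and 77.1% of all 5999, so the shares were close. It was below 0 at 7 genes, Flcn, Atg14, Uvrag, Atg12, Lamp1, Ctsb and Gaa. The part of the raised local background in the ratios was not tested.

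**Figure D4:**
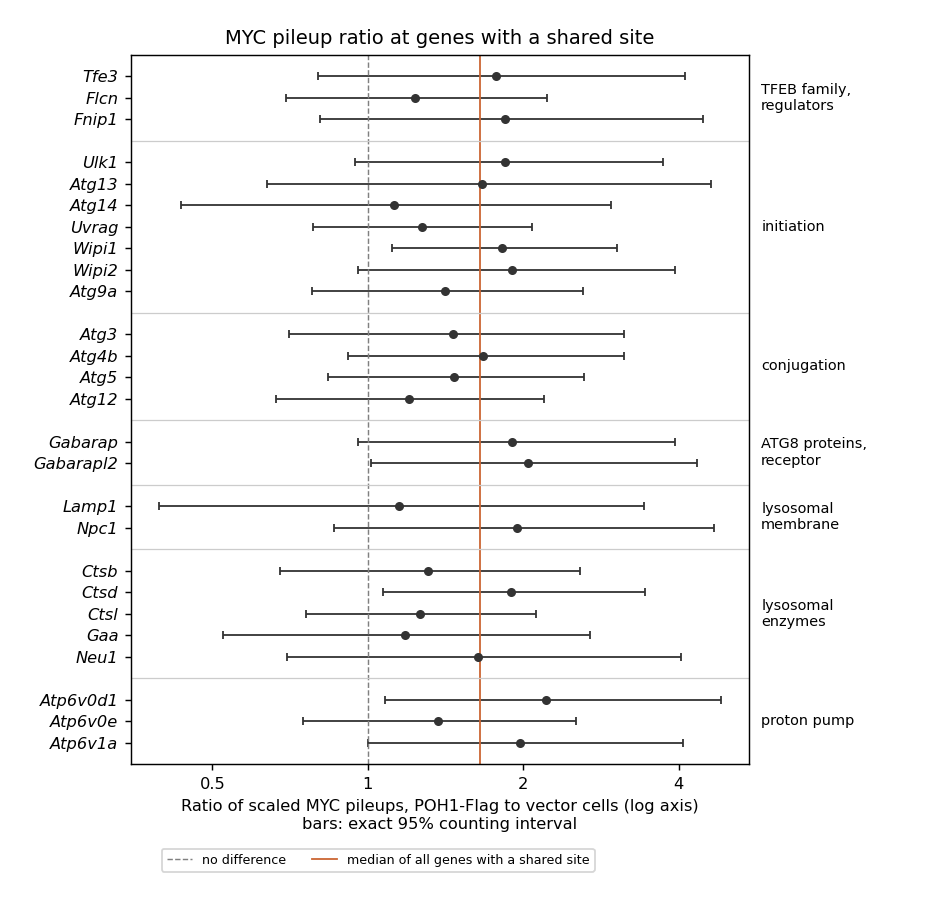
Ratio of scaled MYC pileups in POH1-Flag to vector cells (x axis, log scale) at the 26 genes with a shared site, with exact 95% counting intervals as bars. The dashed line marks 1 and the orange line the median over all genes with a shared site, 1.65, and 4 intervals lie wholly to the right of 1 under this scaling, 1 of them (Wipi1) also with backgrounds in reads per kb.

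Without a vector peak but with one in POH1-Flag cells were 9 genes, namely Tfeb, Mitf, Becn1, Atg16l1, Map1lc3b, Mcoln1, Ctsa, Gla and Atp6v1h. They were 64.3% of the 14 genes without a vector peak, against 17.2% of all 15715 such genes. Their POH1-Flag pileups were low, from 10 reads at Gla to 20 reads at Atp6v1h with a median of 12 reads, against a median of 26 reads at the 26 shared genes. Over all genes the medians were 14 and 26 reads, so the lower pileup is not particular to these 9. A vector peak would have needed 6 to 9 reads at these sites, from their POH1-Flag local background scaled to the vector library. The vector pileups there need not have been 0. At the 26 shared sites that background was higher in POH1-Flag cells, so fewer reads may have sufficed. Scaled likewise, the POH1-Flag pileups ran from 10.2 reads at Gla to 20.5 reads at Atp6v1h, above the reads needed at each of the 9 genes. The 9 genes were picked for a POH1-Flag peak called at much the same threshold, so this was largely fixed by the choice. It does not show what the vector pileups were. When the POH1-Flag list was cut to the 12175 strongest peaks, the length of the vector list, 27 of 41 genes were marked in each list, against 28.2% of all genes in vector and 31.6% in POH1-Flag cells. Then 4 of the 14 genes without a vector peak were marked in POH1-Flag cells only (Becn1, Ctsa, Gla and Atp6v1h), against 8.67% of all such genes. Of the 27 genes with a vector peak 4 had none in the shortened POH1-Flag list (Atg14, Sqstm1, Lamp1 and Gaa), against 10.1% of all genes with a vector peak. At a −log10 q of 10 or more the counts were 6 in vector and 19 in POH1-Flag cells, against 6.91% and 20.1% of all genes.

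Another 100 genes of the pathway, listed by function, had a gene-end MYC peak at 50 in vector and 74 in POH1-Flag cells. Over all protein-coding genes the shares were 28.2% and 40%, which also stand beside each group below. The difference from the 41 genes was not tested. Of the 50 without a vector peak, 25 were marked in POH1-Flag cells only, against 17.2% of all such genes. Of the 50 with one, 1, Tsc2, was marked in vector cells only, against 1.99%. Their median log2 ratio was 0.65 over 48 shared genes, and none of the 100 had a Flag peak near an end. The interval of the ratio lay above 1 at 7 of the 48, against 25.8% of all genes with a shared site. Among 30 further autophagy genes 19 and 24 were marked, with the highest POH1-Flag pileups at Atg9b (33 reads, no vector peak, 946 bp from its end), Snap29 of the fusion machinery (23 and 33 reads) and Rubcn, a brake on fusion (17 and 32 reads, 1.93, 1.04 to 3.70). Among 39 lysosomal genes 15 and 28 were marked, led by the cholesterol transfer gene Npc2 (25 and 48 reads, 1.96, 1.19 to 3.32), Gm2a (18 and 30 reads) and Glb1 (16 and 29 reads). Of 14 further pump genes 7 and 11 were marked, led by Atp6v1d (31 and 50 reads, 1.65, 1.03 to 2.67), Atp6v0c (22 and 32 reads) and Atp6v1f (10 and 25 reads, 2.56, 1.19 to 5.97). Of 17 genes of mTORC1 and TFEB control 9 and 11 were marked, led by the folliculin partner gene Fnip2 (46 and 64 reads, 1.42, 0.960 to 2.13), Lamtor2 of the Ragulator complex (33 and 50 reads) and Rheb (25 and 37 reads). The intervals of Snap29 (0.836 to 2.62), Gm2a (0.920 to 3.25) and Glb1 (0.974 to 3.66) held 1. So did those of Atp6v0c (0.838 to 2.69), Lamtor2 (0.979 to 2.48) and Rheb (0.888 to 2.62). With backgrounds in reads per kb the intervals of Rubcn (0.958 to 3.41) and Atp6v1d (0.954 to 2.47) held 1 as well. Of these 12 sites 8 are also within 1 kb of another gene's end, namely Abcb8 at Atg9b, Pi4ka at Snap29, Fyttd1 at Rubcn, Isca2 at Npc2, Tmppe at Glb1, Eif2s1 at Atp6v1d, Amdhd2 at Atp6v0c and Ubqln4 at Lamtor2.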

How the data were processed

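Peak lists of 3 CUT&Tag libraries, 1 per group, were used. The submitters' processing notes list the build GRCm38 and, without parameters, MACS2 2.2.7.1, BWA 0.7.17-r1188, Trim Galore 0.6.6 and FastQC 0.11.9. The deposited lists give the authors' fold enrichment (a ratio), −log10 p and −log10 q of each summit, and a score that is 10 times −log10 q for 99.98% to 100% of a list's peaks, with positions in bp. From fold and −log10 p the whole read pileup and local background were solved (whole for 100% of peaks, tolerance 0.01 reads). The lowest background of a list was its genome-wide background. The width of its narrowest peak was taken as the fragment length for reads per kb, which is an inference. Shared sites were each other's highest overlapping peaks (at least 1 bp), and a gene took the one with the most POH1-Flag reads. Ratios have exact conditional Poisson 95% intervals. They treat reads as independent molecules, which PCR duplicates are not. Genes and promoters came from RefSeq tables of GRCm38.p6. Python 3.11.15, SciPy 1.17.1 and pandas 2.3.3 were used. The steps were tested on simulated data, and 100% of 5000 pileups were recovered. With 1 library per group no test between cell lines was made.

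The 41 genes, the lists and the role groups were chosen with earlier results of these data known. All 41 genes are named. Of the other pathway genes, the 3 highest POH1-Flag pileups in each of 4 lists are named. The 4 printed promoters are those with an E-box closest to a summit, 1 per role group. Alternatives were stricter thresholds, other distances, listed starts only, equal list lengths, no peaks that meet Flag, other scalings and other motifs.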

Additional observations from a re-analysis of the deposited data

How the results depend on the processing

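The counts of 27 and 36 marked genes stayed within 1.5 times under 9 of 10 alternatives each. Some alternatives could not move a result. Dropping peaks that meet Flag could change no count or ratio here, since no gene-end MYC peak of the 41 genes meets one. Equal lengths leave the vector list whole, so the 27 could not change. With a −log10 q of at least 10 they were 6 and 19, where fewer peaks are used. The count of 9 genes marked in POH1-Flag cells only stayed within 1.5 times under 9 of 10 alternatives and was 4 with lists of equal length. Genes marked in vector cells only, 0 at first, numbered 2 with a −log10 q of at least 5, 2 with a fold of at least 5, 1 with summits within 500 bp and 4 with lists of equal length, where 2.08%, 5.48%, 4.11% and 10.1% of all genes with a vector peak were so marked. The median log2 ratio of 0.72 ranged from 0.61 to 0.72 under 5 alternatives and was 0.18 with the local background. Scaled to the median of all shared genes it was 0.0012, where the median of all genes is 0 by construction. Promoters with an E-box, 15 of 34, numbered 8 with TCACGTGA and 6 with CACGCG in place of CACGTG. The Flag count was 0 under all 8 alternatives run for it. No paired analysis was possible because each group has 1 library. Vector pileups at the 26 shared sites ran from 8 to 33 reads, and 4 of the 26 intervals lay above 1. With scalings of the intervals chosen after seeing the data this count was 3 without scaling, 1 with backgrounds in reads per kb and 0 with the median of all shared genes set to 1.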
